A study of Homo sapiens with 2 samples.

Results

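Exon-skipping junctions known from mRNA and EST evidence alone were compared between MIP/5FU and MIP101, 1 polyadenylated RNA sequencing library of each. The parental line, MIP101, came from a colorectal cancer metastasis in the liver and responds to 5-fluorouracil (5-FU), a uracil analog that inhibits thymidylate synthase and is built into RNA. MIP/5FU is 1 clone of MIP101 obtained by passage in rising 5-FU. Its IC50 for the drug was 10-fold that of MIP101, and its medium held 5 µM 5-FU to maintain resistance. Drug was left out for the final 48 hours or so of culture in both lines. A junction was a member when it joined exons across exactly 1 skipped exon and had no Ensembl transcript (release 53) but at least 1 mRNA or EST behind it. It also needed at least 20 reads over both libraries, in a gene with at least 200. This rule took 703 of the 2211260 junctions listed by the authors and 703 of the 4817 that skip 1 exon and pass both read minima. The members lie in 652 genes, of which 45 hold more than 1 and MELK, a mitotic kinase gene, holds 4.

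A cassette exon is one that the spliceosome either joins to both neighbours or leaves out, so that 1 gene yields a long and a short message. Leaving out an exon whose length is a multiple of 3 removes a stretch of protein and keeps the reading frame, while any other length shifts the frame and usually brings an early stop codon. Messages whose stop codon lies well upstream of their last exon junction are targets of nonsense-mediated decay, a quality control that shortens their life. ESTs are short single-pass reads of cDNA clones, and mRNAs are longer cDNA sequences, so a junction seen there had been transcribed in some tissue or line even where no reference transcript listed it.

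Exons that carry main results are printed as they stand in GENCODE 29 transcripts on GRCh38, in transcript direction. Capitals mark the skipped exon, and lower case marks 31 bases of each neighbouring exon. UMPS had the highest splicing index of all members (exon at chr3:124735093-124735246, + strand), and SAT2 had the greatest drop in skipping share (chr17:7626943-7627044, - strand). SCNN1A (chr12:6349164-6349221, - strand), WNK1 (chr12:871265-871348, + strand) and HNRNPM (chr19:8483158-8483211, + strand) were counted as different in share. SMARCA4 (chr19:11033767-11033865, + strand), KIF21A (chr12:39330242-39330262, - strand) and CLASP1 (chr2:121427404-121427430, - strand) were skipped in nearly all reads of both lines, and the last pair has very short exons.
UMPS: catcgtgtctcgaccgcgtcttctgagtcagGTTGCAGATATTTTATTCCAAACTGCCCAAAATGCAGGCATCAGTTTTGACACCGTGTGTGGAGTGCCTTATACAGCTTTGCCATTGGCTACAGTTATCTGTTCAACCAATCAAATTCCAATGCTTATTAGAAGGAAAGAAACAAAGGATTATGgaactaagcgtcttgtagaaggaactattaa
SAT2: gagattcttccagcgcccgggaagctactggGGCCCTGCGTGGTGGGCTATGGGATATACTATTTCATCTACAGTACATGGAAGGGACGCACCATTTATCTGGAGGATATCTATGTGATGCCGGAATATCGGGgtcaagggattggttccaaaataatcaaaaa
SCNN1A: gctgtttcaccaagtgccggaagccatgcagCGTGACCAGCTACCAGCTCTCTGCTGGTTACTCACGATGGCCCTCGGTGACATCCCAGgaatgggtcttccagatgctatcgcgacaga
WNK1: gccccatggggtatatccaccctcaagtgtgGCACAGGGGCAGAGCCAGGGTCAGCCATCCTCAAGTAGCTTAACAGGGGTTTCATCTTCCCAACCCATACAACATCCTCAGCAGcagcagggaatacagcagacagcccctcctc
HNRNPM: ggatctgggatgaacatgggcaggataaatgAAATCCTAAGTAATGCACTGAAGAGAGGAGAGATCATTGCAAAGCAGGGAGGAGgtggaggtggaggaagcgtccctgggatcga
SMARCA4: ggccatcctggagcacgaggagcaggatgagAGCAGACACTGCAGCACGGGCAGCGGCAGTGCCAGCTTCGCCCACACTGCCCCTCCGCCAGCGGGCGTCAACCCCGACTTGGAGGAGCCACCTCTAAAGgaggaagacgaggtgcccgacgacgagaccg
KIF21A: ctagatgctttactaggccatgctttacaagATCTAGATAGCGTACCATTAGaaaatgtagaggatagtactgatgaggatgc
CLASP1: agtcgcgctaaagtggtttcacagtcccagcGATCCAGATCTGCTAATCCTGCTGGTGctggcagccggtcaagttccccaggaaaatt
The UMPS skipping junction itself reads as follows over its 62 bases, the length of every junction in the files, with capitals for the exon that follows the skipped one.
UMPS junction: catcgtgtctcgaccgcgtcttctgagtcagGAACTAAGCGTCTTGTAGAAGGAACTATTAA

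Gene reads numbered 109693681 in MIP/5FU and 200141071 in MIP101, and junction reads numbered 13022878 in MIP/5FU and 24925624 in MIP101. Member junctions drew 15602 reads in MIP/5FU, 0.120% of its junction reads, and 28392 reads in MIP101, 0.114% of its junction reads. Values were at hand for 15 colon epithelium markers, but not for EPCAM, which was also on the list. Of the 15, 10 were above 1 RPM (read counts over each library's gene read total) in both libraries. KRT8, KRT18, CDH1 and CDX2 were among them. The others, LGALS4, CEACAM6, MUC2, CDX1 and GPA33, were below 1 RPM in at least 1 library. All 15 summed to 8661 RPM in MIP/5FU and 7899 RPM in MIP101. Most of this was KRT8, at 3844 in MIP/5FU and 3309 in MIP101, and KRT18, at 3307 in MIP/5FU and 2790 in MIP101. Hepatocyte markers summed to 6.32 in MIP/5FU and 8.07 in MIP101, with APOA1, APOA2 and TTR at 0 in both. Blood and immune markers summed to 2.43 in MIP/5FU and 1.59 in MIP101, with HBB at 0. Endothelial and fibroblast markers summed to 17.0 in MIP/5FU and 21.1 in MIP101, with CDH5 at 0, PDGFRB as the main part and COL3A1 at 0.346 in MIP/5FU and 8.29 in MIP101. No defining marker of these other cell types beside PDGFRB, COL3A1 and SERPINA1 reached 2 RPM. With 1 library per line, no difference below has a replicate check, no test across samples was possible, and no p-value is given. Intervals cover counting error only, since PCR reads without molecular identifiers are not independent molecules.

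Most members were lowly covered. The median was 38 reads over both libraries, the quartiles were 26 and 65.5, and the most was 1091, on AXIN2. Every member had at least 1 read in each line, with 3 reads or fewer for 21 members in MIP/5FU and for 1, UMPS, in MIP101. Just inside the read minimum, 66 members had 20 or 21 reads, and just outside it 80 junctions of the same kind had 18 or 19. Altogether 6794 junctions in genes with at least 200 reads skip 1 exon with mRNA or EST support alone. Of these, 3682 had 1 to 19 reads and 2409 had none. In 9 members the junction joins neighbouring exons of the authors' numbering, although the authors count 1 exon as skipped. What these 9 junctions leave out was not examined. RFC4, a clamp-loader subunit for DNA replication, is one of them, with 90 reads in MIP/5FU and 164 in MIP101.

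The evidence behind the members was thin at the time of annotation and was largely taken up later. ESTs alone supported 307 members, mRNAs alone 84, and both kinds 312. A single mRNA or EST stood behind 212 members, and 202 were also seen in another species according to the authors' table. The later GENCODE 29 annotation held an exon of the same length with the same flanking intron lengths in the same gene for 641 members. It listed the skipping intron itself for 543 of these (84.7%), against 92 of 430 junctions with no support at all (21.4%) and 1450 of 1458 junctions in Ensembl transcripts (99.5%). Presence in GENCODE 29 went up with the number of supporting sequences, with 72.0% at 1, 87.5% at 2 to 5, 92.2% at 6 to 20 and 97.7% above 20. By kind it was 74.0% for ESTs alone, 85.1% for mRNAs alone and 94.8% for both. A skipping transcript of the protein-coding class was listed for 352 members and one of the nonsense-mediated decay class for 153. Only 26 had the skipping form in a transcript marked as principal.

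**Figure D1:**
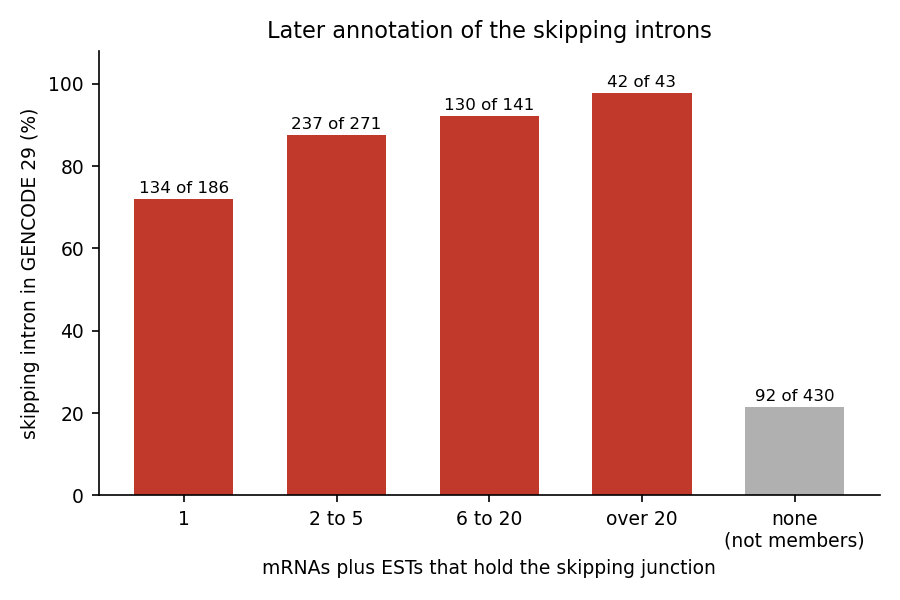
Percentage of members whose skipping intron is listed in GENCODE 29 (vertical axis) by the number of mRNAs and ESTs behind the junction (horizontal axis). Red bars are members and the grey bar is 1-exon skipping junctions without support, and the numbers above are listed junctions of matched ones. The red bars climb to 97.7%, and the grey bar stands at 21.4%.

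Members' exons kept the frame less often than exons skipped in Ensembl transcripts. Of 681 members with an exon length in the files, 312 (45.8%) had a multiple of 3. Among wholly coding skipped exons the share was 278 of 576 (48.3%), against 68.5% for Ensembl-supported skipping, 61.7% for junctions with no support and 40.4% for all internal coding exons of genes with 200 reads. The median skipped exon had 107 bases, and exon 2 of the gene was the one left out in 129 members (18.3%). Removing the exon from a GENCODE 29 coding transcript left the same stop codon for 260 of 541 members (48.1%). For 203 (37.5%) an early stop appeared more than 50 bases before the last junction, the position associated with nonsense-mediated decay. For 66 it appeared later than that, and the other 12 ran to a later stop or to none. The first early-stop class made up 5.71% of 1016 Ensembl-supported and 25.9% of 398 unsupported skipping junctions. These are the ones that could be followed in a coding transcript, of 3626 and 488 in all. Another 52 members skip an exon of the 5' UTR, and 29 one that holds the start or stop codon. For the 622 members placed in a coding transcript, 81.2% of skipped exons ended in G, the usual last base before a donor site. The figure was 80.5% for Ensembl-supported and 84.2% for unsupported skipping. Of the exons upstream of the members' skipped exons, 82.6% ended in G. The median GC content of the members' skipped exons was 50%.

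How much of the message skipped the exon was measured as the skipping share. It is the percentage of skipping reads among skipping reads plus the mean of the upstream and downstream inclusion junctions. That mean was rounded to whole reads, and events needed at least 20 reads in this sum in each line. A share could be given for 632 members. Its median was 13.6% in MIP/5FU (quartiles 6.35% and 29.8%) and 12.7% in MIP101 (6.18% and 27.1%). Ensembl-supported skipping had medians of 95.2% in MIP/5FU and 95.1% in MIP101, over the 2231 of 3626 junctions with a share. Unsupported skipping had 8.93% in each line, over 441 of 488. Members with a share are thus mostly minor forms. The Ensembl-supported junctions with a share mostly pass over exons that these cells rarely include. In both lines 211 members were under 10%, 63 were over 50% and 20 were over 90%. EST-only members had lower shares, with medians of 8.56% in MIP/5FU and 8.46% in MIP101, than members with mRNAs alone, at 20.5% in MIP/5FU and 17.6% in MIP101, or with both kinds, at 17.1% in MIP/5FU and 15.9% in MIP101.

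Grouped by consequence for the message, the coding classes had like medians and differed in how many members had high shares. In the class with an early stop more than 50 bases before the last junction, the median was 13.5% in MIP/5FU and 12.8% in MIP101, and in the class with the same stop it was 12.1% in MIP/5FU and 10.7% in MIP101. High shares were most frequent with the same stop, where 23 of 245 members exceeded 50% in both lines. With an early stop in the last exon or within 50 bases of the last junction, 0 of 65 did. With a later stop, 0 of 11 did. In the class with an early stop more than 50 bases before the last junction, 4 of 193 did. The 4 were HDAC10, a polyamine deacetylase, SLC6A6, the taurine transporter, LRRC23 and WDR90, named after their values were seen. SLC6A6 had 57 skipping reads in MIP/5FU and 135 in MIP101, shares of 68.7% in MIP/5FU and 71.4% in MIP101. Skipped 5' UTR exons, which leave the protein as it is, had medians of 36.8% in MIP/5FU and 37.9% in MIP101 over 45 members, of which 15 exceeded 50% in both. HMGCS1, an early enzyme of cholesterol synthesis, is an example outside the naming rule, with 87 reads (62.6%) in MIP/5FU and 173 reads (63.4%) in MIP101. These groups are descriptions of members with no test between them.

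**Figure D2:**
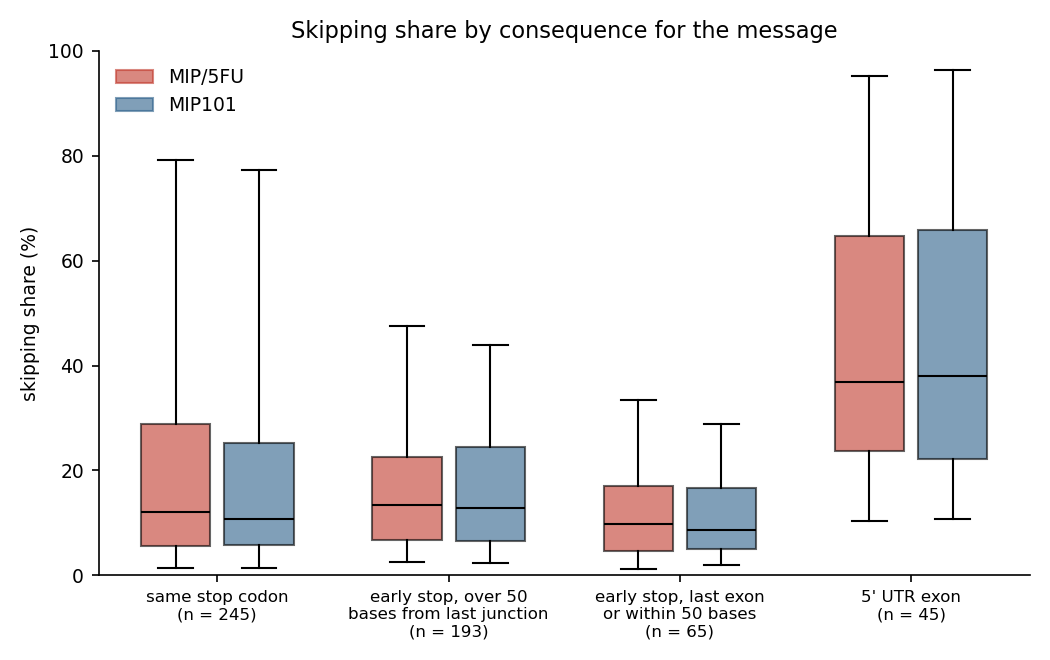
Skipping share in percent (vertical axis) of members grouped by what skipping does to the message, with MIP/5FU in red left of MIP101 in blue. Boxes span the quartiles with the median as a line, and whiskers reach the 5th and 95th percentiles over members. Skipped 5' UTR exons sit highest, with medians of 36.8% in MIP/5FU and 37.9% in MIP101, and the coding classes lie near 8.7% to 13.5%.

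The members with the highest shares were at 87.5% or more in both lines. SMARCA4, the ATPase of the SWI/SNF chromatin remodeller, had 190 skipping reads in MIP/5FU and 362 in MIP101, shares of 93.1% (95% interval 88.8 to 96.2) in MIP/5FU and 91.9% (88.7 to 94.4) in MIP101. Its 99-base exon, printed above, keeps the frame, and 10 mRNAs and 19 ESTs already lacked it. SMCHD1, a chromatin protein of X inactivation, had 292 reads in MIP/5FU and 298 in MIP101, at 100% in MIP/5FU and 99.7% in MIP101. OSBPL9, an oxysterol-binding protein relative, had 76 reads in MIP/5FU and 96 in MIP101 and no read on either inclusion junction. PIP5K1C, a lipid kinase at adhesions and synapses, stood at 92.5% in MIP/5FU and 92.9% in MIP101. ZDHHC20, a palmitoyltransferase, stood at 91.5% in MIP/5FU and 90.3% in MIP101, and DEF8 at 93.5% in MIP/5FU and 88.5% in MIP101. The noncoding RNA SNHG17, listed as AL080249.26, stood at 87.5% in MIP/5FU and 87.6% in MIP101. LRRC37B2 had 59 reads in MIP/5FU and 83 in MIP101 and belongs to a family of near-identical copies, so its reads may be split among them.

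Some of the members with high shares skip very short exons. Of 12 members with a share and an exon of at most 30 bases, 3 exceeded 90% in both lines. KIF21A, a kinesin motor, skips 21 bases and had 39 reads in MIP/5FU (100%) and 74 in MIP101 (97.4%). Its 1 upstream inclusion read in MIP/5FU was lost when the mean was rounded. CLASP1, a microtubule plus-end protein, skips 27 bases and had 39 reads in MIP/5FU and 77 in MIP101, with no inclusion read in either. TANC2, a synaptic scaffold, skips 30 bases and had 24 reads in MIP/5FU and 77 in MIP101, again at 100% in each. All 3 exons keep the frame. The median share over the 12 was 16.7% in MIP/5FU and 14.2% in MIP101, so short exons were not uniformly left out.

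Between the lines the shares were close. Over the 632 members, Pearson's r was 0.951 and Spearman's rho 0.907, a description over events that share the same 2 libraries. The shares of 416 members (65.8%) lay within 5 percentage points, of 547 within 10 and of 620 within 20. The median absolute difference was 2.99 points. A higher share in MIP/5FU was seen for 347 members, a lower one for 276 and an equal one for 9.

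Which members skipped more or less in the resistant clone, relative to the gene, was asked with the splicing index. It is the log2 ratio of junction reads, MIP/5FU over MIP101, minus the same ratio of gene reads, with 0.5 reads added to each count. A member was counted when its index was at least 1 or at most -1 with a counting interval at a 0.1% error rate that excluded 0. By this rule 4 members were higher in MIP/5FU (0.569%) and 8 lower (1.14%). Over all 107276 junctions tested, 0.055% were higher and 0.0988% lower. Skipping of 1 exon was counted more often in general, at 0.436% higher and 0.519% lower over all 4817 such junctions, at 0.165% and 0.303% for those in Ensembl transcripts, and at 2.25% and 1.23% for those without support. The members' percentages counted thus lie between those of Ensembl-supported and unsupported skipping junctions in both directions. On the lower side, their 1.14% is above the 0.519% over all 1-exon skipping junctions. The minimum of 20 reads is on the sum of both lines, for members and for all junctions tested. Some counted members met it only through the line with more reads, such as UMPS with 26 in MIP/5FU and 3 in MIP101. FAU, with 1 in MIP/5FU and 86 in MIP101, is another. The percentages are thus not independent of how junctions were selected. The members' median index was 0.05, against -0.05 over all junctions, and 603 of the 703 lay between -1 and 1. Another 43 members at 1 or more and 45 at -1 or less were not counted, because their intervals reached 0. In these bulk cultures, a form present in fewer cells and a form at a lower level per cell cannot be told apart.

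**Figure D3:**
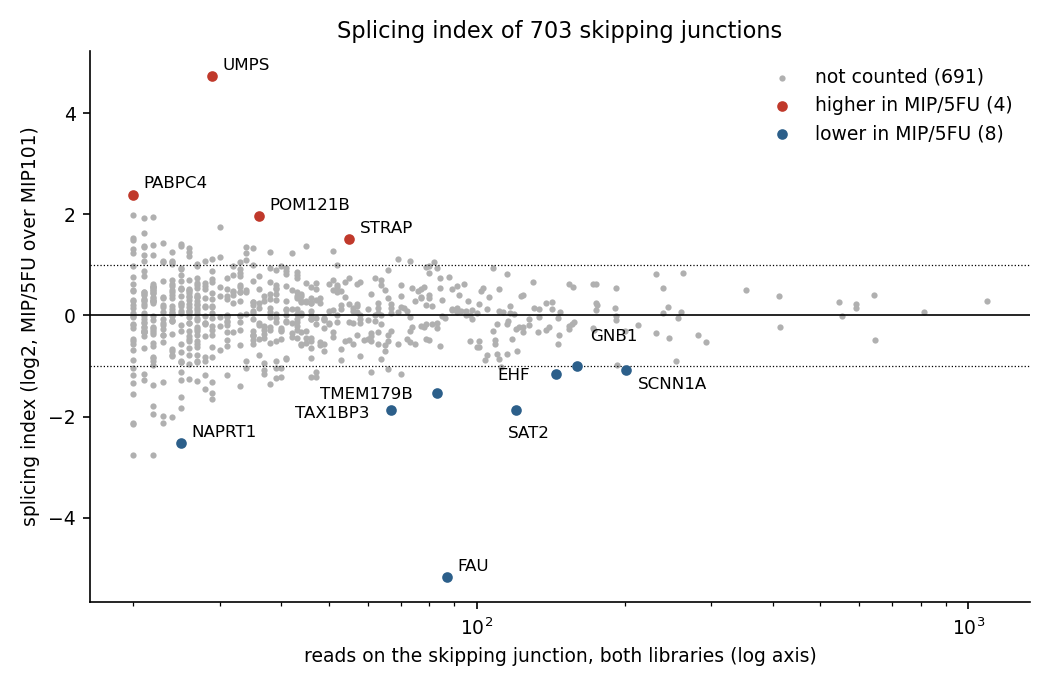
Splicing index in log2 units, MIP/5FU over MIP101 (vertical axis), against reads on the skipping junction over both libraries on a log axis (horizontal axis) for 703 members. Red points are the 4 counted as higher, blue points the 8 counted as lower, and dotted lines mark -1 and 1. The spread is widest at 20 to 30 reads, and the junctions with the most reads lie close to 0.

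UMPS, the enzyme that converts orotate to UMP and activates 5-FU, stood highest. Its junction over exon 2 (hg18 chr3:125932164-125939105) had 26 reads in MIP/5FU and 3 in MIP101, while the gene had 4457 reads in MIP/5FU and 15699 in MIP101. MIP/5FU is thus high on the skipping junction and low on the gene. These gene reads are raw, and scaled to each library's gene read total their log2 ratio, MIP/5FU over MIP101, was -0.949. The index was 4.74, with an interval of 2.41 to 9.36. The upstream inclusion junction had 15 reads in MIP/5FU and 154 in MIP101, and the downstream one had 19 in MIP/5FU and 243 in MIP101. The skipping share was 60.5% (44.4 to 75.02) in MIP/5FU and 1.49% (0.309 to 4.30) in MIP101, intervals that do not overlap. The 154-base exon shifts the frame, and without it the coding sequence of 480 codons would stop after 57. GENCODE 29 lists this form in 2 transcripts, both of the nonsense-mediated decay class, and the files record 6 mRNAs and 3 ESTs.

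The other members counted as higher rest on few reads. PABPC4, a cytoplasmic poly(A)-binding protein, had 15 reads in MIP/5FU and 5 in MIP101, an index of 2.39 (0.09 to 5.69) and shares of 3.88% in MIP/5FU and 0.662% in MIP101. STRAP, a WD-repeat protein of the SMN complex, had 34 reads in MIP/5FU and 21 in MIP101, an index of 1.51 (0.18 to 2.97) and shares of 8.13% in MIP/5FU and 2.80% in MIP101. Both are minor forms with an early stop more than 50 bases before the last junction, as in UMPS. POM121B, from a family of nuclear pore genes with near-identical copies, had 24 reads in MIP/5FU and 12 in MIP101, at an index of 1.97 (0.30 to 3.93). Its upstream inclusion junction had no read in either line, and how its reads divide among copies is uncertain.

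SAT2, an acetyltransferase related to the polyamine acetylating enzyme, differed by -45.4 percentage points in skipping share, the largest drop among the 632 members with a share. Its skipping junction (hg18 chr17:7470836-7471186) had 10 reads in MIP/5FU and 110 in MIP101, an index of -1.88 (-3.89 to -0.50), beside 1061 gene reads in MIP/5FU and 3039 in MIP101. Skipping was the major form in MIP101 and the minor one in MIP/5FU, with shares of 23.8% (12.1 to 39.5) in MIP/5FU and 69.2% (61.4 to 76.3) in MIP101. The 102-base exon keeps the frame, and 136 codons remain without it, against 170 with it. Only 2 ESTs supported this junction, although it was the main form in the parent line.

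FAU, which encodes a ubiquitin-like protein fused to ribosomal protein S30, had the lowest index. Its junction had 1 read in MIP/5FU and 86 in MIP101, and the index was -5.18 (-16.7 to -2.36). The share was under 5% in both lines, at 0.0740% in MIP/5FU and 3.70% in MIP101. The upstream inclusion junction had 2217 reads in MIP/5FU and 3758 in MIP101. The downstream one had far fewer, 483 in MIP/5FU and 715 in MIP101, and the share takes their mean. NAPRT1, the nicotinate phosphoribosyltransferase of NAD synthesis (chromosome 8), had 3 reads in MIP/5FU and 22 in MIP101, at -2.52 (-7.16 to -0.14). TAX1BP3, a small PDZ-domain protein, had 7 reads in MIP/5FU and 60 in MIP101, at -1.86 (-4.41 to -0.23). TMEM179B, a membrane protein, had 14 reads in MIP/5FU and 69 in MIP101, at -1.53 (-3.21 to -0.25). These 4 are minor forms in both lines, with shares of at most 14.1%.

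SCNN1A and EHF, both expressed in epithelia, were among the members counted as lower. SCNN1A, the alpha subunit of the epithelial sodium channel, had 30 skipping reads in MIP/5FU and 171 in MIP101, at an index of -1.08 (-2.14 to -0.19). Its share was 14.2% (9.76 to 19.6) in MIP/5FU and 28.9% (25.3 to 32.8) in MIP101. The 58-base exon shifts the frame late in the coding sequence. Without it the stop comes after 511 codons, some of them in the shifted frame, against 669 with it. EHF, an ETS factor of epithelial cells, had 24 reads in MIP/5FU and 121 in MIP101, at -1.16 (-2.38 to -0.16), with shares of 8.73% in MIP/5FU and 18.3% in MIP101 and an exon of 69 bases that keeps the frame. GNB1, a G protein beta subunit, skipped a 49-base 5' UTR exon with 39 reads in MIP/5FU and 121 in MIP101. Its index of -1.01 (-1.97 to -0.16) sits at the size limit.

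The skipping share gave partly other members. It sets a limit of 10 percentage points and takes the inclusion junctions, not the gene, as its base. With an interval of the difference, at the same error rate, that excluded 0, 7 members were higher in MIP/5FU (1.11%) and 3 lower (0.475%) of 632. Among the 2672 other 1-exon skipping events the figures were 0.898% and 0.674%. The members' counts lie near that background. UMPS, POM121B, SAT2 and SCNN1A were counted by both measures, and 18 members by either.

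WNK1, a kinase that controls ion cotransporters, had 110 skipping reads in MIP/5FU and 122 in MIP101. Skipping of its 84-base exon made up 65.9% (58.1 to 73.0) in MIP/5FU and 42.8% (37.0 to 48.8) in MIP101, a difference of 23.1 points (7.06 to 37.2). The form without the exon was thus the major one in MIP/5FU and the minor one in MIP101. AXIN2, a scaffold that limits WNT signalling and is itself a WNT target, was the member with the most reads, 398 in MIP/5FU and 693 in MIP101. Its shares were 62.6% (58.7 to 66.4) in MIP/5FU and 51.0% (48.3 to 53.7) in MIP101, a difference of 11.6 points (3.74 to 19.1). The 195-base exon keeps the frame and leaves 778 codons, against 843 with it.

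HNRNPM, itself a splicing regulator, had 264 skipping reads in MIP/5FU and 379 in MIP101. Its shares were 36.9% (33.3 to 40.5) in MIP/5FU and 26.4% (24.2 to 28.8) in MIP101 over a 54-base exon that keeps the frame. A second member of HNRNPM, over a 45-base exon, stayed under 1% in both lines, at 0.693% in MIP/5FU and 0.898% in MIP101. CDCA3, a protein of mitotic entry, had 37 reads in MIP/5FU and 32 in MIP101, shares of 25.5% (18.7 to 33.4) in MIP/5FU and 11.2% (7.82 to 15.5) in MIP101. ACACA, the acetyl-CoA carboxylase of fatty acid synthesis, had 37 reads in MIP/5FU and 51 in MIP101 over a 24-base exon. Its shares were 28.2% in MIP/5FU and 14.4% in MIP101, and the interval of the difference came near 0, at 0.835 to 28.97 points. The noncoding snoRNA host ZFAS1, listed as C20orf199, was lower, with 270 reads (57.6%) in MIP/5FU and 542 (67.6%) in MIP101.

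**Figure D4:**
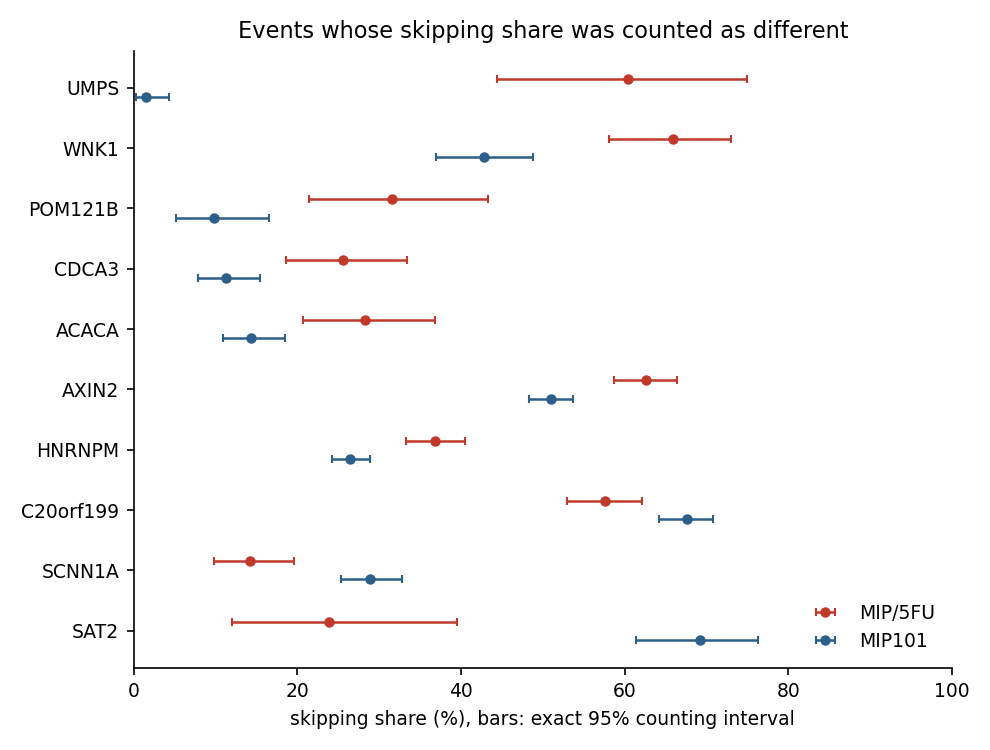
Skipping share in percent (horizontal axis) with exact 95% counting intervals for the 10 members counted by share, MIP/5FU in red above MIP101 in blue. UMPS at 60.5% in MIP/5FU and 1.49% in MIP101, and SAT2 at 23.8% in MIP/5FU and 69.2% in MIP101, stand furthest apart.

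Among the 5 widest differences in each direction, several were not counted because of few reads. BIRC6, a giant inhibitor of apoptosis, had 33 skipping reads in MIP/5FU and 31 in MIP101, shares of 78.6% (63.2 to 89.7) in MIP/5FU and 49.2% (36.4 to 62.1) in MIP101, and the interval of the difference ran from -2.46 to 52.8 points. GPR180, a membrane protein, had 28 reads (53.8%) in MIP/5FU and 23 (27.1%) in MIP101. On the lower side, CACNB3, a calcium channel subunit, had 3 reads (9.09%) in MIP/5FU and 20 (34.5%) in MIP101. C18orf45 (now TMEM241) had 16.7% in MIP/5FU and 39.5% in MIP101, on 4 reads in MIP/5FU and 17 in MIP101. C10orf28 (now R3HCC1L) had 48.0% in MIP/5FU and 70.8% in MIP101, and AKAP9, a centrosome and Golgi scaffold, 24.1% in MIP/5FU and 46.3% in MIP101 over its exon 5.

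**Figure D5:**
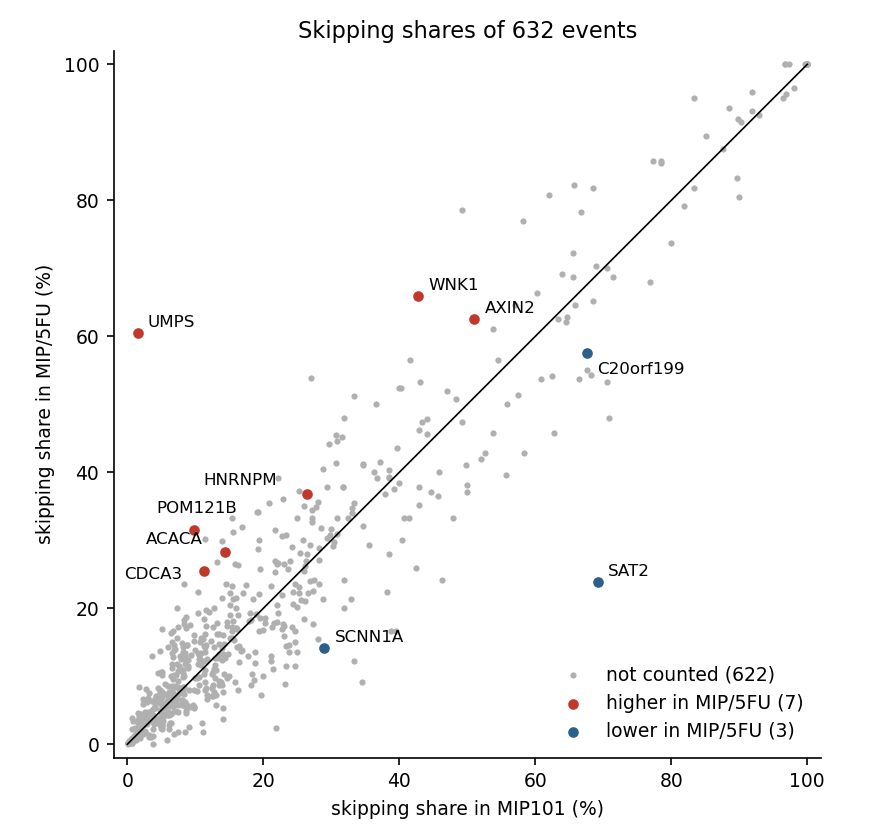
Skipping share in MIP/5FU (vertical axis, percent) against that in MIP101 (horizontal axis, percent) for 632 members, with the line of equal shares. Red points are the 7 counted as higher in MIP/5FU and blue points the 3 counted as lower. Most points lie within 10 points of the line, and UMPS and SAT2 lie furthest from it.

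Coverage of the skipped exon was set beside each of the 18 counted members. It is not independent of the share, since reads on the inclusion junctions can also cover the exon. The exon's own index had the opposite sign to the counted change in skipping in 16, the exceptions being FAU and GNB1. That change was the index where it was counted and the share otherwise. Among the 663 other members with an exon index, 377 (56.9%) had a sign opposite to their splicing index. These figures thus rest on partly different measures. Of the 8 members counted by the index alone, 6 had the opposite sign, none with an interval excluding 0. The 6 with an interval excluding 0 were all counted by share, and 1 of these, UMPS, also reached the size limit, at -1.28 (-1.70 to -0.89). SAT2 had an exon index of 0.76 (0.21 to 1.29) and C20orf199 one of 0.52 (0.20 to 0.83). WNK1 stood at -0.64 (-1.03 to -0.27), AXIN2 at -0.30 (-0.43 to -0.17) and HNRNPM at -0.20 (-0.40 to -0.01). For minor forms such as PABPC4 (-0.07) and TAX1BP3 (0.06) the exon index was near 0. These reads come from the same libraries, and exon reads are part of gene reads.

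Setting the junction against the inclusion junctions of the same exon in place of the gene changed the balance of directions. The counts were then 16 higher (2.52%) and 7 lower (1.1%) of 635, against 4 higher and 8 lower with the gene. The other 1610 skipping events gave 1.8% and 1.43% by the same measure, and 11 members were counted both ways. The median was 0.11 over the members and 0.06 over the other 1610 events. The 7 lower were those lower against the gene except GNB1. Those added on the higher side include PMPCB, BIRC6, CTPS, GPR180, CDCA3, WNK1, LSM14A (a P-body protein), ACACA, PFDN1 (a prefoldin subunit), LAMP1 and HNRNPH1. CTPS, the CTP synthase that follows UMPS in the pyrimidine pathway, had 27 reads in MIP/5FU and 18 in MIP101, shares of 13.7% in MIP/5FU and 4.76% in MIP101, and a value of 1.66 (0.15 to 3.29). Relative to its gene it stood at 1.37 (-0.10 to 2.98) and was not counted. HNRNPH1, a splicing regulator, had 121 reads in MIP/5FU and 142 in MIP101, shares of 12.8% in MIP/5FU and 6.64% in MIP101, and a value of 1.05 (0.43 to 1.66). PMPCB, the mitochondrial processing peptidase, had 14 reads in MIP/5FU and 6 in MIP101. LAMP1, a lysosomal membrane protein, had 57 in MIP/5FU and 51 in MIP101.

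Of the 8 gene lists, splicing and RNA-binding genes held members most often, in 15 of 83 genes with 200 reads (18.1%), against 652 of 14095 genes overall (4.63%). Genes with a member were deeply read, with a median of 23954 reads over both libraries against 8393 over all genes with 200 reads, and the part of depth in these percentages was not tested. Of their 20 members none was counted by the index and 1, HNRNPM, by share. Their median index was 0.18 and their median shares were low, 5.35% in MIP/5FU and 5.31% in MIP101. PCBP2, a poly(C)-binding protein outside this list, had 3 members, and the one with the most reads had 184 (12.1%) in MIP/5FU and 461 (16.5%) in MIP101. RBM5, a splicing regulator of apoptosis genes named after its values were seen, also had 3, all with an early stop. Translation genes held members in 17 of 140 (12.1%). PABPC4 was counted by the index, and the median shares were 1.55% in MIP/5FU and 1.22% in MIP101. RPS25 had 43 reads (1.88%) in MIP/5FU and 103 (2.65%) in MIP101, and RPL10 62 (1.55%) in MIP/5FU and 76 (1.30%) in MIP101, both ribosomal protein genes with far more inclusion reads.

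DNA repair, replication and cell cycle genes held members in 24 of 265 genes, with CDCA3 counted by share and a median index of 0.38 over 27 members. Their median shares were 14.7% in MIP/5FU and 8.77% in MIP101. CDC42BPB, a kinase that the symbol rule places there, had 31 reads (32.6%) in MIP/5FU and 58 (27.1%) in MIP101. Cytoskeleton and adhesion genes held members in 18 of 194, ubiquitin and proteasome genes in 13 of 196 and mitochondrial genes in 14 of 204. None of the members in these 3 lists was counted by either measure. Examples are USP54, a ubiquitin-specific protease relative, at 85.7% in MIP/5FU and 77.3% in MIP101, and UBAP2, a ubiquitin-associated protein, at 18.99% in MIP/5FU and 15.1% in MIP101. ATP5B, the ATP synthase beta subunit, stood at 2.84% in MIP/5FU and 1.92% in MIP101. Apoptosis genes held members in 3 of 52, BIRC6 among them, with none counted by either measure. PDCD6 had 12 reads in MIP/5FU and 19 in MIP101, at an identifier that now names AHRR. Nucleotide genes held members in 2 of 44, UMPS and CTPS, of which UMPS was counted.

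The 5 members with the most reads had indexes between -0.48 and 0.40. C20orf199, with 812 reads over both lines, had an index of 0.07, which was -0.62 against its inclusion junctions, and AXIN2 one of 0.28. NAP1L4, a histone chaperone, had 233 reads (66.4%) in MIP/5FU and 357 (60.3%) in MIP101. In MELK the 4 members ranged widely, and the one over exon 3 led with 100 reads (40.3%) in MIP/5FU and 139 (38.5%) in MIP101. The others stayed at 2.87% to 14.5% in MIP/5FU and 5.16% to 11.3% in MIP101.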

How the data were processed

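Polyadenylated RNA of 1 MIP/5FU and 1 MIP101 culture was made into cDNA with random primers, amplified over 10 PCR cycles and sequenced as paired reads of 42 (80%) or 36 bases, per the labels' protocols, which name no strand-marking step. Per the file headers, the authors deposited raw read counts per gene and per junction, not normalized, and coverage per exon region as summed bases. Coordinates are on hg18, per the submitters' processing notes. The alignment program was not given in sources used here.

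Each junction's index was computed over all 107276 junctions with at least 20 reads, where the gene had 200 or more reads in total and 10 or more in each line, with exact conditional binomial intervals at a 0.1% error rate. Exon coverage was turned into reads by the mean bases per read. Shares have Clopper-Pearson 95% intervals, and their differences Newcombe intervals at a 0.1% error rate. Skipped exons were matched to GENCODE 29 (GRCh38) by gene identifier, exon length and both flanking intron lengths. The reading frame after removal was followed in a coding transcript. Sequences come from GENCODE 29 transcripts. Protein sequences are not shown here.

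Named were UMPS, all counted members, the 8 largest shares with at least 50 event reads in each line, the 5 with the most reads, the 5 widest share differences in each direction and the 2 members of each list with the most reads. Other names were added after their values were seen. Some members that the rule covers are not reported here. The members, lists and rules were chosen with earlier results of these data known. The calculations were tested on simulated data. Alternatives are given in the closing section. Calculations used pandas 2.3.3, scipy 1.17.1 and numpy 2.4.6 in Python 3.11.15, and plots used matplotlib 3.10.9.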

Additional observations from a re-analysis of the deposited data

How the results depend on the processing

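With 1 library per line, reads per member set what can be seen: a minimum of 10 reads gave 1359 members and 50 reads gave 244. The count of members with a higher index, 4 as reported, became 7 with the median of the gene's other junctions as denominator, 16 with the inclusion junctions, 7 at a minimum of 10 reads or with none, 1 at 50 reads, 2 at an index of 2 and 30 with a 95% interval. The count with a lower index, 8 as reported, became 2 at an index of 2 and 37 with a 95% interval. The count with a higher share, 7 as reported, became 12 with the downstream inclusion junction alone, 15 at 5 points and 3 at 20 points. The count with a lower share, 3 as reported, became 5 with the upstream inclusion junction alone, 8 at 5 points and 1 at 20 points. With at least 50 event reads in each line, the median share was 10.5% in MIP/5FU and 9.001% in MIP101. Keeping events whose inclusion junctions differ at most 4-fold, a choice made after seeing the data, gave 6 higher and 3 lower shares. Of 218 index values of named members under these alternatives, 4 of GNB1 fell below the limits and 8 of members not counted before passed them. Sign changed in 7 values of 4 members that the index did not count, C20orf199, SMARCA4, DEF8 and ZDHHC20. The causes were not tested. No paired analysis was possible because each line has 1 library.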
